A study of Capra hircus with 3 samples.

Results

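Among 6896 cells of the E120 library from cashmere goat fetal skin, 209 cells, or 3.03% (95% interval 2.64 to 3.46%), were taken as late hair shaft cells. The members were chosen by measured values of 10 genes. A cell was taken when FABP9, GPRC5D and KRT84 together made up at least 40 UMIs (unique molecular identifiers, one for each captured RNA molecule) per 10000 UMIs of that cell, a unit written CP10K below, and when KRT35 and KRT85 together exceeded the sum of KRT25, KRT27, KRT28, KRT71 and KRT73. Whatever the members show for these genes, or for any gene set beside cells the rule turned away, is therefore a description, and no test was made.

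The animals were Northern Shaanxi White cashmere goats (Capra hircus), and back skin was taken at E60, E90 and E120, that is, at days 60, 90 and 120 of gestation, which the design text calls induction, organogenesis and cytodifferentiation of the hair follicle. Each stage was 1 droplet library of 3′ RNA tags, holding cells of at least 2 fetuses that had been prepared one by one and mixed ahead of the barcoding step. There were thus no replicates at any stage, and the spread between animals is unknown. Skin of E60 and E90 was taken apart with collagenase IV and pipetting, whereas at E120 the follicles were picked out with forceps after collagenase IV and then dissociated with TypLE Express, an enzyme mix used in place of trypsin, so that stage and preparation cannot be told apart. No genotype, treatment or sex is given for any group, and intervals below are exact 95% intervals that cover counting error only.

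A hair shaft is built by matrix cells at the base of the follicle, which stop dividing, move up and fill with hair keratins in pairs of a type I and a type II chain. Cells of the cortex, which forms the bulk of the fibre, then add keratin-associated proteins that bind the filaments through cysteine, while cells of the cuticle flatten into the outer scales and cross-link their contents. KRT35 (type I) and KRT85 (type II) are early hair keratins, KRT84 is a further type II hair keratin, GPRC5D encodes an orphan receptor known from hard keratinised tissue, and FABP9 encodes a fatty acid binding protein. The 5 keratins on the other side of the rule belong to the inner root sheath, the layer that encases the growing shaft.

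The table held 20676 cells, where the design text states 19705. E120 was the deepest library, with a median of 13064 UMIs per cell against 8579 at E60 and 3714 at E90. No cell of E60 or E90 met the rule, which allows a share of up to 0.0438% and 0.0433%, and a UMI of any of the 3 genes was found in 0 cells of E60 and 8 cells of E90, the highest sum there being 3.18 CP10K. E120 shared 10 cell barcodes with E60 and 13 with E90, none of them a member.

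The members differed in which of the 3 genes led. GPRC5D was the most abundant of the 3 genes in 109 members (1.58% of E120 cells), KRT84 in 93 (1.35%) and FABP9 in 7 (0.102%), and these are called GPRC5D-led, KRT84-led and FABP9-led cells. No cell of the E120 library, member or not, had both GPRC5D and KRT84 at 20 CP10K or more. The count of 0 of 6896 cells allows a share of up to 0.0435%. At that level, 109 members had only GPRC5D and 97 only KRT84. Among all other E120 cells, 29 (0.434%) had only GPRC5D and 73 (1.09%) only KRT84. Either level was thus rare in the library. Whether 0 cells with both is fewer than such rare levels would give by themselves was not tested. Across the 209 members the logs of the 2 genes had a Pearson r of -0.95. These points come from 1 library. A rule on a sum favours cells with 1 high gene, so the split by leading gene and this r are descriptions. Low counts of the opposite gene did occur: a KRT84 UMI was present in 24.8% of GPRC5D-led cells and a GPRC5D UMI in 36.6% of KRT84-led cells. In endothelial marker cells, which should lack both, the shares were 9.61% for KRT84 and 27.6% for GPRC5D, at a median of 6241 UMIs per cell against 28626 in GPRC5D-led and 21946 in KRT84-led cells. At these unequal depths the low counts cannot be told from free RNA.

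**Figure D1:**
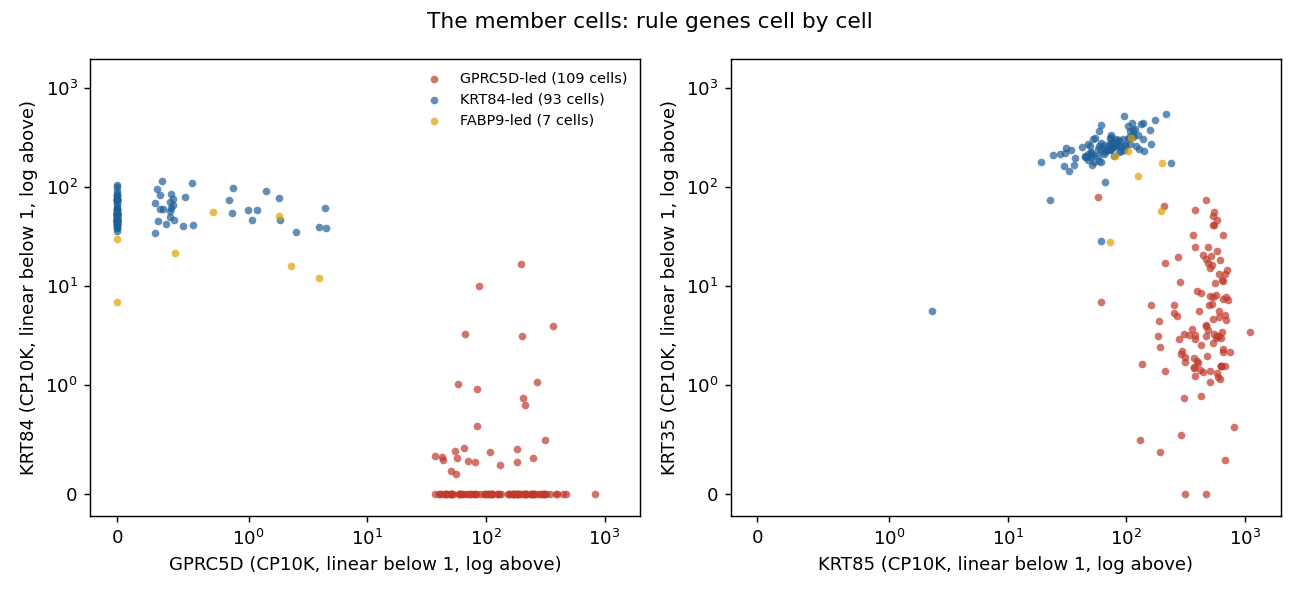
Levels of GPRC5D (horizontal) and KRT84 (vertical) on the left and of KRT85 (horizontal) and KRT35 (vertical) on the right in each of the 209 members (points, in CP10K on axes linear below 1 and log above, coloured by leading gene). The 109 GPRC5D-led and 93 KRT84-led cells lie along opposite axes, and no cell has 20 CP10K or more of both genes.

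In GPRC5D-led cells the GPRC5D level was 37.3 CP10K in the lowest cell, 124 in the median cell and 825 in the highest, and KRT84 was 0, 0 and 16.8. In KRT84-led cells the KRT84 level was 34.2, 53.9 and 114, and GPRC5D was 0, 0 and 4.53. The ranges did not overlap for either gene, which the naming by leading gene largely fixes. Summed over cells and scaled to 1000000 UMIs (CPM), GPRC5D was 14517 CPM (14378 to 14657) against 24.2 CPM (17.6 to 32.4), 600-fold apart. KRT84 was 76.5 CPM against 5880 CPM (5770 to 5991), 76.9-fold lower in GPRC5D-led cells, where 81.4% of its counts came from 3 cells.

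The pair of early keratins divided along the same line, although the rule asked only for their sum. KRT35 was 0, 3.64 and 78.7 CP10K in the lowest, median and highest GPRC5D-led cell and 5.52, 256 and 545 in KRT84-led cells. KRT85 ran the other way, at 58.2, 489 and 1107 CP10K in GPRC5D-led and 2.30, 72.5 and 240 in KRT84-led cells. The ranges overlapped at their ends for both keratins while the medians stood far apart. Set against the 2239 other shaft keratin cells, which had at least 40 CP10K of KRT35 plus KRT85 with more of these than of sheath keratins but were no members, the GPRC5D-led cells held 11.2-fold less KRT35 (1165 against 13086 CPM) and 3.65-fold more KRT85 (47504 against 13012 CPM). The KRT84-led cells held 1.98-fold more KRT35 (25951 CPM) and 1.70-fold less KRT85 (7675 CPM). Over the members, the logs of GPRC5D and KRT85 had an r of 0.83 and those of KRT84 and KRT35 an r of 0.91 (209 cells of 1 library), while the log of UMIs per cell had an r of 0.17 with GPRC5D and -0.19 with KRT84.

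FABP9 was lower in members than in all other E120 cells together and higher than in the nearest group. It was 420 CPM in members, 766 CPM in all other E120 cells and 112 CPM in other shaft keratin cells (3.74-fold lower than in members), with 156 CPM in GPRC5D-led and 493 CPM in KRT84-led cells. It was 4428 CPM in 774 inner root sheath keratin cells, defined as cells with at least 40 CP10K of the 5 sheath keratins and more of these than of KRT35 plus KRT85. A level of 20 CP10K or more was found in 11 members and in 202 (26.1%) of those sheath keratin cells. The keratin condition turned away 130 cells that reached a sum of 40, and FABP9 was the leading gene in every one of these, with a median of 92.0 CP10K beside 321 CP10K of KRT71 and 156 CP10K of KRT25. The 7 FABP9-led members also carried sheath keratins, with 2237 CPM of KRT71 against 305 CPM over all members, and they had 5774 CPM of FABP9 and 3975 CPM of KRT84. A FABP9 UMI was found in 85.2% of members and in 45.6% of endothelial marker cells.

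The label could be checked only on markers that the rule had not used. The 9 listed hair shaft markers in the table summed to 43443 CPM in members and 11815 CPM in the others, but nearly all of this was KRT35 and KRT85, by which the members were chosen. Without genes of the rule, the other 7 (KRT32, KRT33A, KRT36, KRT82, HOXC13, MSX1 and LEF1) summed to 907 CPM (880 to 934) in members, 811 CPM in all other E120 cells and 1123 CPM in the other shaft keratin cells defined above, so by this sum members did not stand above the shaft keratin cells. They were above the 231 CPM of inner root sheath keratin cells and the 217 CPM of endothelial marker cells. Inner root sheath markers outside the rule (KRT26, KRT72, KRT74 and GATA3) summed to 40.6 CPM in members, 186 CPM in the others and 794 CPM in inner root sheath keratin cells. Outer root sheath or basal markers summed to 215 against 1306 CPM and suprabasal epidermal markers to 50.7 against 529 CPM. Of the non-epithelial lists, dermal markers summed to 11.5 against 168 CPM (2 of 12 at 0 in members), endothelial to 3.92 against 72.7 CPM (2 of 7 at 0), myeloid to 1.03 against 15.4 CPM (5 of 8 at 0), melanocyte to 9.07 against 12.1 CPM (5 of 7 at 0) and red blood cell to 21.6 against 268 CPM. Each of these lists from other types summed to less in members than in the other E120 cells. Against other shaft keratin cells, members had more outer root sheath or basal (166 CPM there), suprabasal (28.2 CPM) and melanocyte markers (6.03 CPM). Inner root sheath markers outside the rule were also higher in members, against 20.8 CPM. Dermal (15.5 CPM there), endothelial (6.30 CPM), myeloid (1.39 CPM) and red blood cell (198 CPM) markers were lower in members. Melanocyte markers summed to 14.6 CPM in GPRC5D-led cells, above the other E120 cells, and to 1.08 CPM in KRT84-led cells. In GPRC5D-led cells 5 of these 7 markers, TYR, TYRP1, MLANA, SLC45A2 and TRPM1, were at 0. PMEL alone reached 10 CPM in GPRC5D-led, KRT84-led or other shaft keratin cells. It was at least 2-fold higher in GPRC5D-led cells than in either of the others. "Late" rests on no measure of time here and is kept only as the working name.

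The class is a range of a score, not a type. The summed score of members ran from 40.5 to 825 CP10K with a median of 75.4. Within the range from 40 to 60 CP10K lay 75 members (35.9%), of which 51 were KRT84-led, and just outside, from 20 to 40, lay 127 cells, of which 88 were KRT84-led. At 80 or more the order turned, with 75 GPRC5D-led and 18 KRT84-led cells. The balance between the states thus depended on where the threshold stood. Members were also deep cells, with a median of 25236 UMIs against 12926 in the other E120 cells and 16415 in the other shaft keratin cells, and 86 of them (41.1%) lay above the 94th percentile of UMIs of the library, against 4.91% of the others. Doublets were not called, and without cells above that percentile the share of members was 1.90%. After thinning each cell to 2000 UMIs, which left out no cell, members had a median of 617 genes per cell and the others 715, whereas the unthinned medians were 2588 and 2284. The thinned medians were 579 in GPRC5D-led and 646 in KRT84-led cells.

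Members were set beside all other E120 cells for orientation. Of 5277 genes that reached 10 CPM in the group with more, called tested genes below, 324 (6.14%) were at least 2-fold higher in members and 1600 (30.3%) at least 2-fold lower. With 1 library these are counts of sizes, not of tested changes. With scaling by the median of gene ratios, which lay at a log2 value of -0.30, the counts were 486 higher and 1166 lower (29.4% of the called genes higher in place of 16.8%). The genes with the largest ratios outside the rule were KRTAP11-1 (431 against 4.20 CPM, 103-fold), KRT33A, KRTAP3-1, LY6G6D and TUBB2B, followed by TSPAN33, SLC40A1, SPINK6, LAP3, RORA, DSG4, TUBB2A, VSIG8, TIMP2 and EFHD1. The lowest were the chemokine gene CXCL14 (22.9 against 787 CPM, 34.4-fold lower), DCN (11.1 against 397 CPM), MT3, PLVAP, TOP2A, UHRF1, CENPF, SERPINH1, CLEC3B and CRABP1, several of which are genes of dermal, vascular or dividing cells that the comparison group contains.

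The other shaft keratin cells are the closer background. Against them, 330 of 4859 genes (6.79%) were at least 2-fold higher in members and 962 (19.8%) at least 2-fold lower, or 463 and 576 with the median of ratios (a log2 shift of -0.28). For the genes at the top of this comparison the mean over members hides their distribution, because most were carried by 1 of the 2 larger states. Each state was therefore set beside the other and beside the other shaft keratin cells, a choice made after the split had been seen, and these comparisons share cells. In GPRC5D-led against KRT84-led cells, 540 of 4585 genes (11.8%) were at least 2-fold higher and 1416 (30.9%) at least 2-fold lower (700 and 956 with the median of ratios, a log2 shift of -0.32). Against other shaft keratin cells, GPRC5D-led cells had 437 of 4874 genes (8.97%) at least 2-fold higher and 1855 (38.1%) lower (640 and 1310, a log2 shift of -0.39), and KRT84-led cells had 254 of 4899 (5.18%) higher and 575 (11.7%) lower (285 and 503, a log2 shift of -0.11). By these counts GPRC5D-led cells stood further from the other shaft keratin cells than KRT84-led cells did. With every cell thinned to 2000 UMIs that held for lower genes (2080 against 1108) but not for higher ones (580 against 623). At a summed score of 80 or more the higher genes were likewise 498 against 551. That setting left 18 KRT84-led cells, and thinning left few counts per gene in the sums. The part of counting error in these numbers was not tested.

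Keratin-associated proteins form the matrix between filaments of the cortex, and the 4 followed here were concentrated in GPRC5D-led cells. These are the genes of the table whose symbol begins with KRTAP. Family members under other symbols or with an identifier only were not counted. The 4 genes summed to 942 CPM in GPRC5D-led cells, 10.2 CPM in KRT84-led cells and 10.4 CPM in other shaft keratin cells. All 4 were more than 2-fold higher in GPRC5D-led cells in both comparisons, beside 11.8% and 8.97% of all tested genes. KRTAP11-1 was 0, 4.23 and 42.1 CP10K in the lowest, median and highest GPRC5D-led cell. Its summed level was 723 CPM (693 to 755) against 4.30 CPM (1.86 to 8.47) in KRT84-led cells and 8.48 CPM in other shaft keratin cells, 168-fold and 85.3-fold apart. A UMI of it was present in 90.8% of GPRC5D-led, 7.53% of KRT84-led and 0.901% of endothelial marker cells. KRTAP3-1 was more uneven, at 196 CPM in GPRC5D-led cells with 59.4% of its counts in 3 cells, against 5.91 CPM in KRT84-led cells that all came from 1 cell. KRTAP27-1 and KRTAP7-1, named here although below the level set for named genes, were 11.8 and 11.1 CPM in GPRC5D-led cells and had no count in KRT84-led cells.

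Further hair keratins also went to 1 state or the other. KRT33A, a type I keratin known from the cortex, was 0, 1.36 and 31.7 CP10K in the lowest, median and highest GPRC5D-led cell, and 298 CPM (278 to 319) in sum against 2.51 CPM in other shaft keratin cells, 119-fold more. In KRT84-led cells it had 1 count in all. KRT36 was 87.3 CPM in GPRC5D-led and 20.4 CPM in KRT84-led cells (4.27-fold), and KRT39 was 37.5 and 1.61 CPM. KRT82, a type II keratin known from the cuticle, was on the other side, at 22.6 CPM (16.3 to 30.5) in KRT84-led against 0.112 CPM in other shaft keratin cells, a 202-fold ratio that rests on 15 KRT84-led cells. In GPRC5D-led cells KRT82 had 3 counts (1.04 CPM). Of the 11 type I and 6 type II hair keratins listed, the table named 6 and 3, so that most of the family, KRT31, KRT81 and KRT86 among them, is not analysed here by name.

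The most abundant RNA of the members had no symbol. The gene with the Ensembl identifier ENSCHIG00000022057 took 4.18% of the members' UMIs and 7.03% of those of GPRC5D-led cells, at 70271 CPM against 173 CPM in KRT84-led and 1587 CPM in other shaft keratin cells (407-fold and 44.3-fold). It exceeded KRT85, the second most abundant, in share of UMIs. What it encodes is not given in the sources used here.

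**Figure D2:**
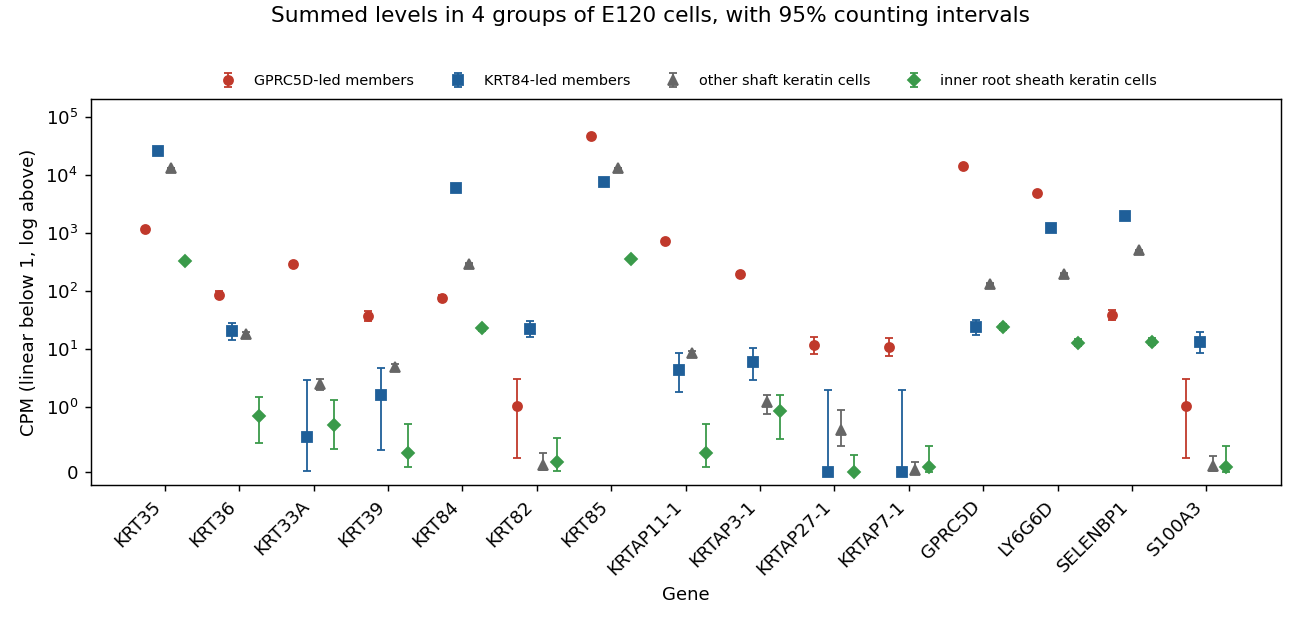
Summed level in CPM (axis linear below 1 and log above) of shaft genes in GPRC5D-led, KRT84-led, other shaft keratin and inner root sheath keratin cells, with bars for exact 95% Poisson intervals of the summed counts. KRT85, KRTAP11-1 and KRT33A are highest in GPRC5D-led cells, and KRT35, KRT84 and SELENBP1 are highest in KRT84-led cells.

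Proteins that cross-link, seal or protect the drying cell were in part high in both states and in part in 1 of them. In KRT84-led cells 8 of 14 tested genes of this list were at least 2-fold higher than in other shaft keratin cells and 1 was lower, with a median log2 ratio of 1.87 beside -0.16 for all tested genes, of which 5.18% were higher and 11.7% lower. In GPRC5D-led cells 5 of 12 were higher and 3 lower, with a median of 0.37 beside -0.65, and 8.97% and 38.1%. SELENBP1, a selenium binding protein, was 0, 21.0 and 43.2 CP10K in the lowest, median and highest KRT84-led cell, and its sum was 1943 CPM (1880 to 2008) against 502 CPM in other shaft keratin cells (3.87-fold) and 39.3 CPM in GPRC5D-led cells (49.5-fold lower there). PADI3, which converts arginine to citrulline in follicle proteins, was 156 CPM against 12.3 CPM in other shaft keratin cells (12.7-fold) and 9.04 CPM in GPRC5D-led cells, with a UMI in 64.5% of KRT84-led and 7.51% of endothelial marker cells. It was higher still, at 353 CPM, in the inner root sheath keratin cells. TGM1, a transglutaminase that forms cross-links between proteins, was 46.8 CPM against 1.14 CPM (40.9-fold) and 3.48 CPM in GPRC5D-led cells. S100A3, a calcium binding protein of the hair cuticle that is below the level set for named genes, was 13.4 CPM in KRT84-led cells, 1.04 CPM in GPRC5D-led cells and 0.0837 CPM in other shaft keratin cells. CNFN was counted as higher in KRT84-led cells from 2 cells, and CSTA, counted as higher in both states, had 96.8% of its counts in KRT84-led cells in 3 cells.

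A smaller set of this kind was high in both states. LY6G6D, a gene of the LY6 family of small surface proteins, was 0, 35.0 and 207 CP10K in GPRC5D-led and 0, 5.51 and 82.2 CP10K in KRT84-led cells, and 4815 and 1207 CPM in sum against 198 CPM in other shaft keratin cells. VSIG8, an immunoglobulin-domain protein known from the hair shaft, was 629 and 1107 CPM against 84.4 CPM. It was uneven on the GPRC5D side. The 51 members with 40 to under 120 CP10K of GPRC5D had 198 CPM of VSIG8, and the 55 with 120 or more had 1082 CPM. SPINK5, a serine protease inhibitor of epithelia, was 111 and 112 CPM against 15.7 CPM, and the epithelial metallothionein MT4 was 1003 and 647 CPM against 249 CPM. The other metallothioneins were at the opposite end, MT3 at 3.13 and 3.76 CPM against 45.4 CPM and MT2A at 1.04 and 2.69 CPM against 42.5 CPM. PSORS1C2 was 51.1 CPM in GPRC5D-led cells, with no count in KRT84-led cells (at least 31.7-fold higher, if those cells together held 3 counts). RORA, a nuclear receptor, was 181 and 145 CPM against 13.4 CPM, so it too was high in both.

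**Figure D3:**
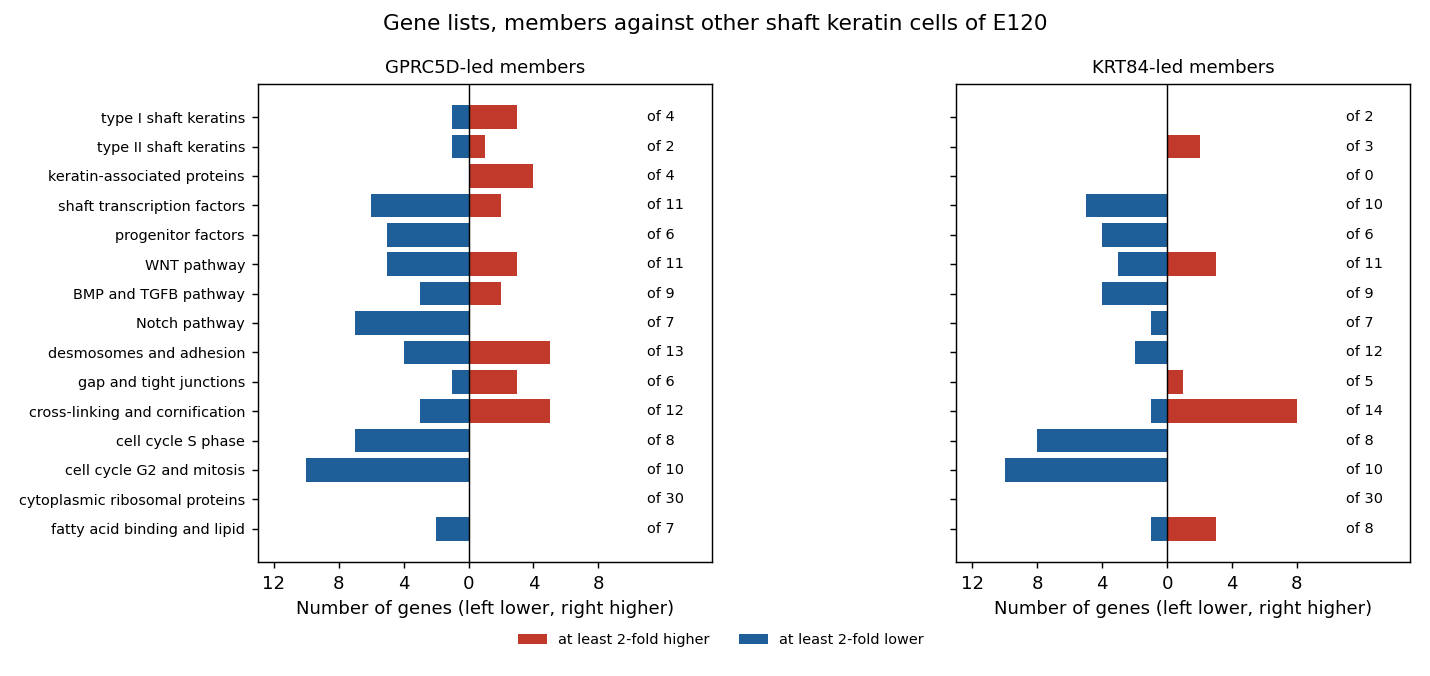
For each gene list, the number of tested genes at least 2-fold higher (right) and at least 2-fold lower (left) in GPRC5D-led and in KRT84-led cells than in other shaft keratin cells, with the number tested at the right of each row. All 10 tested G2 and mitosis genes are lower in both states, all 7 tested Notch genes are lower in GPRC5D-led cells and 1 of 7 is lower in KRT84-led cells, and 8 of 14 cornification genes are higher in KRT84-led cells.

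Genes of division were low in both states. Of 10 tested genes of G2 and mitosis, all 10 were at least 2-fold lower than in other shaft keratin cells in GPRC5D-led and in KRT84-led cells, and the list summed to 49.0 and 33.9 CPM against 581 CPM. S phase genes summed to 62.6 and 82.2 CPM against 368 CPM, with 7 and 8 of 8 lower. TOP2A, which untangles DNA before division, was 10.4 CPM in GPRC5D-led cells, where 86.7% of its counts came from 3 cells, and 4.84 CPM in KRT84-led cells against 134 CPM. The background shares of lower genes, 38.1% and 11.7%, are to be read beside these counts. The cyclin CCND1 differed between the states, at 141 CPM in GPRC5D-led and 841 CPM in KRT84-led against 720 CPM in other shaft keratin cells, and the cell cycle inhibitor CDKN1A was 253, 93.0 and 97.2 CPM. None of the 30 tested ribosomal protein genes passed 2-fold in either state.

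Among transcription factors of the shaft, 2 of 11 tested factors in GPRC5D-led cells were at least 2-fold higher than in other shaft keratin cells and 6 were lower, and in KRT84-led cells 0 of 10 were higher and 5 were lower. The shares over all tested genes were 8.97% higher and 38.1% lower in GPRC5D-led and 5.18% and 11.7% in KRT84-led cells. HOXC13, a regulator of hair keratin genes, was 0, 3.00 and 8.68 CP10K in GPRC5D-led and 2.06, 8.33 and 23.0 CP10K in KRT84-led cells, with 337 and 811 CPM against 569 CPM. It was thus present in all 93 KRT84-led cells and 2.41-fold lower in GPRC5D-led cells. MSX1, a factor of matrix cells, was 26.4 and 21.5 CPM against 234 CPM, and LEF1, the factor through which WNT signals reach their targets, was 115 and 78.5 CPM against 299 CPM, so both were lower in each state. PRDM1, a transcriptional repressor of differentiating epithelia, was 216 CPM (200 to 234) in GPRC5D-led against 5.91 CPM in KRT84-led and 18.7 CPM in other shaft keratin cells (36.6-fold and 11.6-fold). FOXN1, the gene altered in nude mice and below the level set for named genes, was 16.7, 1.08 and 1.87 CPM. KLF4 was 401, 30.1 and 225 CPM and LHX2 was 181, 2.69 and 107 CPM, so that for these 2 factors it was the KRT84-led cells that stood apart. GATA3, a factor of the inner root sheath, was 65.0 CPM in KRT84-led and 21.9 CPM in GPRC5D-led cells, but 68.6% of the former counts came from 3 cells, and the direction turned at a summed score of 80 or more.

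Notch is a receptor through which neighbouring cells signal by contact. All 7 tested genes of its pathway were at least 2-fold lower in GPRC5D-led than in other shaft keratin cells, beside a background of 38.1%, and their median log2 ratio was -2.14 beside -0.65 for all tested genes. In KRT84-led cells 1 of 7 was lower, near the background of 11.7%, and the median was -0.35 beside -0.16. Directly between the states, 4 of 5 tested Notch genes were lower in GPRC5D-led cells, beside 30.9% of all tested genes. The ligand JAG1 was 58.8 CPM in GPRC5D-led, 439 CPM in KRT84-led and 487 CPM in other shaft keratin cells, and the target HES1 was 73.4, 304 and 326 CPM. KRT84-led cells thus had levels of these 2 genes near those of the other shaft keratin cells. Of the WNT genes, 3 of 11 were higher and 5 lower in GPRC5D-led cells and 3 higher and 3 lower in KRT84-led cells. The backgrounds were 8.97% higher and 38.1% lower, and 5.18% and 11.7%, so the lower count in GPRC5D-led cells is near its background. The ligand WNT10A was 6.95, 142 and 41.2 CPM in GPRC5D-led, KRT84-led and other shaft keratin cells, the receptor FZD10 was 65.4, 62.4 and 18.8 CPM, and the WNT feedback inhibitor NKD1 was 127, 5.91 and 45.8 CPM. SFRP1, counted as higher in KRT84-led cells, had its counts there in 1 cell.

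BMP signalling promotes shaft differentiation, and ID1 and ID3 are among its direct targets. Of 9 tested genes, 2 were higher and 3 lower in GPRC5D-led cells and 0 higher and 4 lower in KRT84-led cells. In GPRC5D-led cells the lower share is near the 38.1% of all tested genes, whereas in KRT84-led cells that background was 11.7%. ID1 was 0, 3.22 and 41.8 CP10K in GPRC5D-led and 0, 0.724 and 14 CP10K in KRT84-led cells, with 586 and 116 CPM against 1754 CPM in other shaft keratin cells. ID3 was 372 and 523 CPM against 1357 CPM. The ligand BMP2 was 103, 1.08 and 11.9 CPM, and BAMBI, a decoy receptor that dampens the pathway, was 2485, 818 and 615 CPM, so the ligand and the decoy were both highest in GPRC5D-led cells while the targets were lower in each state. Of the growth factor list, 6 of 6 tested genes were lower in GPRC5D-led and 4 of 6 in KRT84-led cells, beside 38.1% and 11.7% of all tested genes. Its KITLG, the ligand that melanocytes follow through the KIT receptor, was 37.5 and 10.8 CPM against 274 CPM.

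Desmosomal genes differed among themselves in GPRC5D-led cells. DSG4, the desmosomal cadherin of the hair shaft, was 0, 1.89 and 25.8 CP10K in GPRC5D-led cells and 226 CPM (209 to 244) in sum, against 21.0 CPM in KRT84-led and 25.1 CPM in other shaft keratin cells (10.8-fold and 9.02-fold). DSC1 was 67.8, 25.8 and 21.8 CPM in the same order. DSG3, a cadherin of basal cells below the level set for named genes in both states, was 8.69, 0.538 and 21.0 CPM, and DSC3 was 45.9, 53.2 and 113 CPM. In all, 5 of 13 tested genes were higher and 4 lower in GPRC5D-led cells, and 0 of 12 were higher and 2 lower in KRT84-led cells. Over all tested genes the shares were 8.97% higher and 38.1% lower in GPRC5D-led and 5.18% and 11.7% in KRT84-led cells. Of the gap and tight junction genes, 3 of 6 tested (GJB2, CLDN4 and TJP1) were higher in GPRC5D-led cells and 1 (CLDN1) was lower. In KRT84-led cells 1 of 5 (GJB2) was higher and 0 lower. The same shares over all tested genes are to be read beside these counts. CLDN1 was 79.3 CPM in GPRC5D-led and 398 CPM in KRT84-led against 228 CPM in other shaft keratin cells.

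The genes outside the rule with the largest ratios between the states included some listed genes and many unlisted ones. On the GPRC5D side were SLC40A1, the iron exporter ferroportin (599 CPM against no count in KRT84-led cells, at least 371-fold higher), the growth factors FGF21 (161 CPM, at least 99.6-fold) and NRG2 (147 CPM, at least 91.2-fold), and KRT33A and KRTAP11-1 described above. SLC40A1 had a UMI in 0 of 93 KRT84-led cells, which allows up to 3.23% of cells with a UMI and sets no limit on cells that express the gene at a lower level. EFHD1, a mitochondrial calcium binding protein, was 2124 against 15.1 CPM (141-fold), TUBB2B, a beta tubulin, 550 against 4.84 CPM (114-fold) and TIMP2, a metalloproteinase inhibitor, 553 against 4.84 CPM (114-fold), with FAM129A and TSPAN33 completing the 10. On the KRT84 side were the tight junction gene CLDN10 (239 CPM, against 1 count in GPRC5D-led cells), NPPC, the C-type natriuretic peptide (140 CPM, against 1 count), CYP26B1, which breaks down retinoic acid (209 against 1.39 CPM), PLBD1 (207 against 2.43 CPM), SELENBP1, CCDC50, SDC2, ECHDC1, STK17A (1384 against 62.9 CPM) and DIPK1C. CLDN10 and CYP26B1 were also higher in KRT84-led than in other shaft keratin cells, which had 3.91 and 7.95 CPM.

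The genes most like the rule's own genes over the 209 members followed the same division. By Pearson r of log values, EFHD1 (0.93), ENDOD1 (0.93), LAP3 (0.90), SPPL3 (0.89) and SRI (0.89) were most like GPRC5D, and STK17A (0.93), SELENBP1 (0.91), SEPT7 (0.81), REEP4 (0.77) and SEPT11 (0.77) were most like KRT84. SLC40A1 (0.81), KRT33A (0.76), KRTAP11-1 (0.74), TSPAN33 (0.69) and LY6G6D (0.68) were most like the summed score. The score itself had an r of 0.69 with GPRC5D and -0.49 with KRT84, so it ranked GPRC5D-led cells highest. LAP3, a leucine aminopeptidase, was 3.44, 63.4 and 212 CP10K in the lowest, median and highest GPRC5D-led cell and 0, 2.05 and 22.8 in KRT84-led cells, with 7036 CPM against 353 CPM and 455 CPM in other shaft keratin cells. All these points share 1 library.

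To see whether the states stood at the ends of gradients, members and other shaft keratin cells were binned together by GPRC5D level, from 0 (1387 cells) to 120 CP10K or more (55 cells). KRT35 was 14503 CPM in the first bin and 14348, 9016, 5146, 1587 and 701 CPM in the following bins. KRT85 was 9174, 11673, 29580, 44784, 48449 and 46935 CPM. The first of these bins held 59 KRT84-led members, and without them it had 13954 CPM of KRT35 and 9324 CPM of KRT85. KRT85 was thus near its highest level from 10 CP10K of GPRC5D on, below the threshold of the rule, while KRT35 was lower in each later bin. KRTAP11-1 was 2.42, 3.65, 31.2, 96.1, 310 and 1174 CPM. In CPM most of this range lay among the members, whereas as a ratio more of it lay in the bins under 40 CP10K. TOP2A was 139, 139, 27.5, 6.72, 19.0 and 2.15 CPM. In CPM its largest step, from 139 to 27.5 CPM, lay below 40 CP10K of GPRC5D. As a ratio its largest step was from 19.0 to 2.15 CPM, between bins that held members only. The values did not fall steadily, since 19.0 CPM followed 6.72 CPM. Median UMIs per cell in these bins were 15311, 19108, 5046, 26050, 29304 and 26999, the third bin (2 to 10 CP10K, 190 cells) being the shallowest, and the part of depth in these values was not tested.

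Binned by KRT84 instead, from 0 (1146 cells) to 40 CP10K or more (87 cells), KRT35 was 9186 CPM in the first bin and 26113 CPM in the last, and KRT85 was 16628 and 7815 CPM. The first bin held 82 GPRC5D-led members, and without these it had 10281 CPM of KRT35 and 12358 CPM of KRT85, so the direction was the same and the contrast in both keratins smaller. ID1 was 1773 and 115 CPM, VSIG8 was 132 CPM (60.2 CPM without those members) and 1148 CPM and HOXC13 was 514 and 817 CPM in the first and last bins. LEF1 was 271, 297, 327, 224 and 77.9 CPM over the 5 bins, so it was low in the last bin only. Listed G2 and mitosis genes summed to 735 CPM in the first bin and 34.6 CPM in the last.

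**Figure D4:**
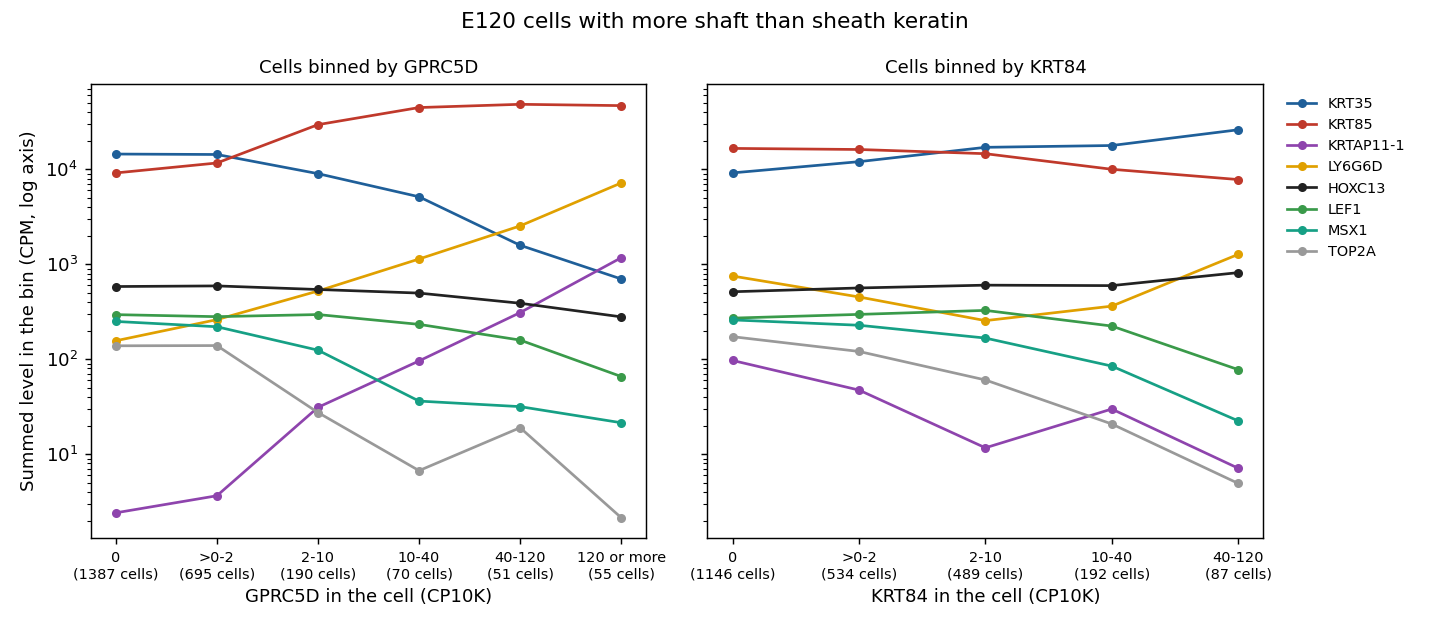
Summed level in CPM (log axis) of selected genes in shaft keratin cells binned by their GPRC5D level (left) and by their KRT84 level (right), in CP10K. With GPRC5D, KRT85 and KRTAP11-1 are higher and KRT35 is lower in each later bin up to 40 CP10K, and with KRT84, KRT35 is higher in the last bin (26113 CPM) than in the first (9186 CPM) and KRT85 lower.

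Sheath and basal keratins in KRT84-led cells rested on a handful of cells. KRT14 was 275 CPM there with 96.9% of its counts in 3 cells, KRT17 was 212 CPM with 95.2% in 3 cells and KRT28 was 173 CPM with 79.5% in 3 cells. At a summed score of 80 or more these 3 genes were lower in KRT84-led than in other shaft keratin cells, and GATA3, CNFN, KRT73 and SFRP1 turned likewise. The outer root sheath or basal list summed to 498 CPM in KRT84-led cells with a median of 0 CP10K per cell and a highest cell of 396 CP10K. The cell type of these few cells was not tested.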

How the data were processed

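Values deposited by the authors were natural log values, the log of 1 plus UMIs scaled to 10000 per cell. UMI counts were recovered from them: 100% of nonzero values were whole multiples of each cell's smallest value, within 0.01, which is taken as 1 UMI. Reads were processed with Cell Ranger 3.0.2 per the submitters' processing notes, and the genome build is not given in the sources used here. The table held 16739 genes, 12709 with a symbol. Cells were assigned to stages by their names. Counts were summed over the cells of a group, scaled to CPM and compared as log2 ratios of CPM + 1. A gene was tested when it had at least 10 CPM in the higher group and called at 2-fold. Folds in the text are ratios of CPM, and folds against 0 counts use a floor of 3 counts over the group. Intervals at 95% are exact Poisson for CPM and exact binomial (Clopper-Pearson) for shares, while the limit given for a count of 0 is 3 counts of the total. Endothelial marker cells had at least 10 CP10K of the endothelial list and were no members. They also had under 40 CP10K of KRT35 plus KRT85 and under 40 CP10K of the 5 sheath keratins, which limits free keratin RNA in them by definition. Stages had 1 library each, so nothing was tested. The UMI total of the groups was 4853107 in members and 88550184 in the other E120 cells.

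Named outside the 10 genes of the rule were, among genes with a symbol and at least 100 CPM in the higher group, the 15 largest and 10 smallest ratios against all other E120 cells, the 10 largest and 10 smallest against other shaft keratin cells, listed genes with at least 20 CPM in either group, and the 5 genes most like the score. The members and lists were chosen with earlier results of these data known. The comparisons between leading genes, their 10 largest and 10 smallest ratios, and the genes most like GPRC5D and KRT84 were added after the data had been seen. Doublets were not called, and cells above the 94th percentile of UMIs were left out as an alternative. The calling step was run on simulated sums for members against all other E120 cells only. The depth of the states, and genes with most counts in a few cells, were not simulated. Python 3.11.15, numpy 2.4.6, scipy 1.17.1, pandas 2.3.3 and matplotlib 3.10.9 were used.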

Additional observations from a re-analysis of the deposited data

How the results depend on the processing

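The share of members in E120, 3.03%, was 4.87% at a summed score of 20 or more, 1.41% at 80 or more, 1.90% without cells above the 94th percentile of UMIs and 0.899% when a UMI of each of the 3 genes was required, all of which redefine the members. Against all other E120 cells the count of higher genes (324) was 166 at a minimum of 50 CPM, and that of lower genes (1600) was 876 with a pseudocount of 10 CPM, 466 at 50 CPM and 3317 with no filter. Against other shaft keratin cells the count of higher genes (330) was 217 with the pseudocount of 10, 152 at 50 CPM and 517 with no filter. The count of lower genes (962) was 588 at a score of 20, 1643 at 80, 640 without cells above the UMI percentile, 401 with the pseudocount of 10, 290 at 50 CPM, 1781 with no filter and 576 with the median of ratios. For GPRC5D-led against KRT84-led cells, higher genes (540) were 830 with thinned cells, 259 at 50 CPM and 1018 with no filter, and lower genes (1416) were 714, 444 and 3131 with the pseudocount of 10, 50 CPM and no filter. For GPRC5D-led against other shaft keratin cells, higher genes (437) were 231 at 50 CPM, and lower genes (1855) were 1043, 581 and 3571 with the pseudocount of 10, 50 CPM and no filter. For KRT84-led against other shaft keratin cells, higher genes (254) were 551 at a score of 80, 138 with the pseudocount of 10, 623 thinned, 106 at 50 CPM and 561 with no filter, and lower genes (575) were 1072, 301, 1108, 177 and 1400. The filter and pseudocount settings change which genes can be called; the cause of the other differences was not tested.

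Of 269, 232, 219, 225 and 221 genes and lists followed in these 5 comparisons, 155, 106, 117, 132 and 94 were past 2-fold, and 152, 106, 105, 132 and 86 of these kept their direction in every setting. Against all other E120 cells, the log2 ratio of KRT35 was -0.033 and of PLBD1 -0.14 at a score of 80, and of CNFN 0.26 without cells above the UMI percentile. For GPRC5D-led against KRT84-led cells at a score of 80, log2 ratios reversed for CNFN (3.62), GATA3 (0.33), KRT14 (0.26), MYC (0.85), NASP (1.31) and the list of outer root sheath or basal genes (0.30). Without cells above the UMI percentile they reversed for GATA3 (0.56), KRT27 (0.36), KRT73 (0.45), SBSN (0.47) and the inner root sheath list (0.69), and with thinned cells for CLDN4 (-0.0064). For KRT84-led against other shaft keratin cells at a score of 80 they reversed for CNFN (-2.82), GATA3 (-0.35), KRT14 (-1.72), KRT17 (-1.74), KRT28 (-0.28), KRT73 (-0.11), SFRP1 (-2.16) and the outer root sheath or basal list (-2.03). The cause was not tested. No paired analysis was possible because each stage had 1 library and the groups compared are cells of the same library.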
